A study of Mus musculus with 9 samples.

Results

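Aminoacyl-tRNA synthetases, the enzymes that load each amino acid onto its transfer RNA, were followed in mouse prostate cancer cells by the messenger RNA of 36 genes. The genes were taken from a list of symbols, 20 for enzymes of the cytosol and 16 for enzymes of the mitochondria, and all 36 of 36 listed were found among the 12842 genes of the table. All 36 passed the filter on low values in every comparison.

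Each synthetase recognises its own amino acid and tRNA and joins them at the expense of ATP, and the charged tRNA is then carried to the ribosome by an elongation factor. Cytosol and mitochondria are largely served by separate enzymes, all encoded in the nucleus, and several cytosolic ones are held in a large multi-synthetase complex around the scaffolds Aimp1, Aimp2 and Eef1e1. Uncharged tRNA is sensed by the kinase Gcn2 (gene Eif2ak4), which phosphorylates eIF2α and raises translation of the transcription factor Atf4. Many cytosolic synthetase genes are known Atf4 targets.

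The study asked what the histone methyltransferase Nsd2, which dimethylates lysine 36 of histone H3, does in metastatic prostate cancer. Poly-A RNA from 9 libraries was sequenced, 3 in each of 3 groups. All groups were NPK cells, a line isolated from lung metastases of genetically engineered mice with a YFP reporter, in which an inducible Cre acts in luminal prostate cells. Every group, control included, carries the same engineered alleles. The control group is labelled only as control cells, the shNsd2 group had Nsd2 silenced by a short hairpin RNA, and the MCTP group was treated with an MCTP compound, named by the study as a putative NSD2 inhibitor.

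Some limits come with these labels. The MCTP libraries 1, 2 and 3 carry the compound numbers 39, 40 and 41, while the article names only MCTP-39, so the spread between these libraries could include different compounds. For shNsd2 all 3 titles name Nsd2, whereas the description of the cells gives Nsd2 for library 1, Nsd3 for library 2 and Nsd4 for library 3. Dose and time of the MCTP treatment were not found in the labels. The study's methods name a pLKO.1 vector with a hairpin against luciferase as control for silencing, and the labels do not say whether the control cells here carried it. For MCTP-39 in cultured DU145 cells the methods name DMSO as vehicle control, and whether the control cells here received it was not found either. If they lacked vector or vehicle, its effect cannot be told apart from that of the treatment. The p-values measure differences against the spread between libraries of a group, which may be technical repeats of the same cells.

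Nsd2, listed under its older symbol Whsc1, read 12.48, 12.43 and 12.42 in control libraries 1 to 3, on the log2 scale of the table. Its values were 11.56, 11.61 and 11.68 in shNsd2 and 12.15, 12.21 and 12.07 in MCTP. All 3 shNsd2 libraries, including libraries 2 and 3, were below every MCTP library, and these were below every control library.

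Markers of the labelled cell type were checked in the control libraries. The epithelial keratins Krt8 and Krt18 read 16.21 to 16.35 and 15.25 to 15.47, Cdh1 read 11.70 to 11.84 and the prostate factor Hoxb13 10.25 to 10.32. Tmprss2, a protease of luminal cells, read 6.85 to 6.95. The mesenchymal filament Vim was also high, at 17.16 to 17.26, and the cadherin Cdh2 read 11.50 to 11.56. Of 2 fibroblast genes analysed, the collagen Col1a1 read 8.12 to 8.25 and Dcn was below the filter value of 3.78, as were Epcam, at 3.54 to 3.55, and the endothelial gene Cdh5. Pbsn, Krt5, Ptprc, Lyz2, Pecam1 and Col1a2 were not analysed here.

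Markers of the labelled cells and of other cell types were also compared between groups, and they moved in both directions. Cd68, a lysosomal protein used as a macrophage marker and the single leukocyte marker of 3 that was analysed, read 6.50, 6.51 and 6.60 in control, 6.78, 6.78 and 6.72 in shNsd2 and 7.20, 7.15 and 7.44 in MCTP. Krt14, a keratin of basal cells, read 8.78, 8.98 and 8.95 in control, 9.76, 9.68 and 9.63 in shNsd2 and 10.06, 9.91 and 10.30 in MCTP. Both genes were higher in every treated library than in every control. Krt14 rose by 1.19 with MCTP (adjusted p = 2.74e-04 from limma) and by 0.78 with shNsd2 (adjusted p = 2.22e-05), and Cd68 rose by 0.73 (adjusted p = 6.88e-04) and 0.23 (adjusted p = 0.00227). Col1a1 fell by 0.33 with MCTP (adjusted p = 0.0105) and by 0.30 with shNsd2 (adjusted p = 0.00111), and Cdh1 by 0.34 (adjusted p = 0.00325) and 0.20 (adjusted p = 0.00368).

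The other basal marker, Trp63, did not go with Krt14. It fell by 0.09 with shNsd2 (adjusted p = 0.0464), a call lost without each single library other than control 2 (adjusted p from 0.0728 to 0.120), and was at 0.03 with MCTP (adjusted p = 0.586), where it turned to -0.0175 after quantile normalization and passed as higher after the GC correction (adjusted p = 0.0127). Tmprss2 rose by 0.31 with MCTP (adjusted p = 0.00493) and fell by 0.17 with shNsd2 (adjusted p = 0.0115, and 0.0502 without shNsd2 1). Vim rose by 0.32 with MCTP (adjusted p = 0.0266) and fell by 0.16 with shNsd2 (adjusted p = 0.0375). The MCTP call of Vim was lost without each single library other than MCTP 2 (adjusted p from 0.0730 to 0.0973), and its shNsd2 call without each other than control 1 (adjusted p from 0.0757 to 0.119). Hoxb13 and Krt18 were not called in either comparison. Hoxb13 was at 0.23 with MCTP, higher in every library (adjusted p = 0.0615), and at 0.04 with shNsd2 (adjusted p = 0.545), and Krt18 at -0.01 in both (adjusted p = 0.961 and 0.951). With shNsd2, Krt8 fell by 0.21 (adjusted p = 0.0193) and Cdh2 by 0.10 (adjusted p = 0.0332). Krt8 was lost without control 2, control 3 or shNsd2 3 (adjusted p = 0.0747, 0.0503 and 0.0523), and Cdh2 without each single library other than control 3 (adjusted p from 0.0609 to 0.0941). With all 9 libraries in 1 fit and with the replicate block the shNsd2 calls of Trp63, Vim, Krt8 and Cdh2 were lost (adjusted p from 0.0522 to 0.123), as was the MCTP call of Vim with the block (0.0807). After the GC correction Trp63 was at -0.03 with shNsd2 (adjusted p = 0.517). With MCTP neither Krt8 nor Cdh2 passed, and Krt8 passed as higher without MCTP 2 (adjusted p = 0.00182). The part of these genes in the synthetase results was not tested, and in bulk RNA fewer cells of a type and less RNA per cell cannot be told apart.

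The cytosolic and mitochondrial genes were first compared with each other within the control cells, as a description. Levels were put on a per-length scale by subtracting the log2 of the reference transcript length in kb from the mean log2 value. The notes name build mm9, while the lengths come from GRCm38 annotation, so the counted transcripts may differ from those used here and the levels per kb and their order depend on that. Gars, the glycine enzyme, had the highest level per kb at 13.26, followed by Nars for asparagine at 12.65, Sars for serine at 12.00 and Kars for lysine at 11.81. Gars and Kars each encode both the cytosolic and the mitochondrial form of their enzyme. At the low end of the cytosolic class stood Tars for threonine at 10.35, Dars for aspartate at 10.28 and Farsa, the catalytic subunit of the phenylalanine enzyme, at 10.13.

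Mitochondrial enzymes had lower levels per kb. Lars2 for leucine led at 10.05, then Iars2 for isoleucine at 9.62 and Yars2 for tyrosine at 8.55, and the list ended with Nars2 at 6.69, Wars2 at 6.64 and Mars2 at 4.41. The value of Mars2 rests on a reference transcript of 11294 nt. Every cytosolic gene stood above every mitochondrial gene on this scale, but the gap between Farsa and Lars2 was smaller than the control SD of Lars2 (0.223, n = 3).

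Means over each class were taken in every library, also as a description. The 20 cytosolic genes averaged a log2 value of 12.61, 12.79 and 12.80 in control, 12.82, 12.78 and 12.82 in shNsd2, and 12.37, 12.27 and 12.40 in MCTP. All MCTP libraries lay below all others, while control and shNsd2 overlapped. The 16 mitochondrial genes averaged 9.27, 9.33 and 9.33 in control, 9.42, 9.41 and 9.39 in shNsd2, and 9.32, 9.25 and 9.37 in MCTP. Here all shNsd2 libraries lay above all others, and MCTP overlapped control. The difference between the class means was 3.42 ± 0.0740 (SD, n = 3) in control, 3.40 ± 0.0267 in shNsd2 and 3.03 ± 0.0173 in MCTP.

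**Figure D1:**
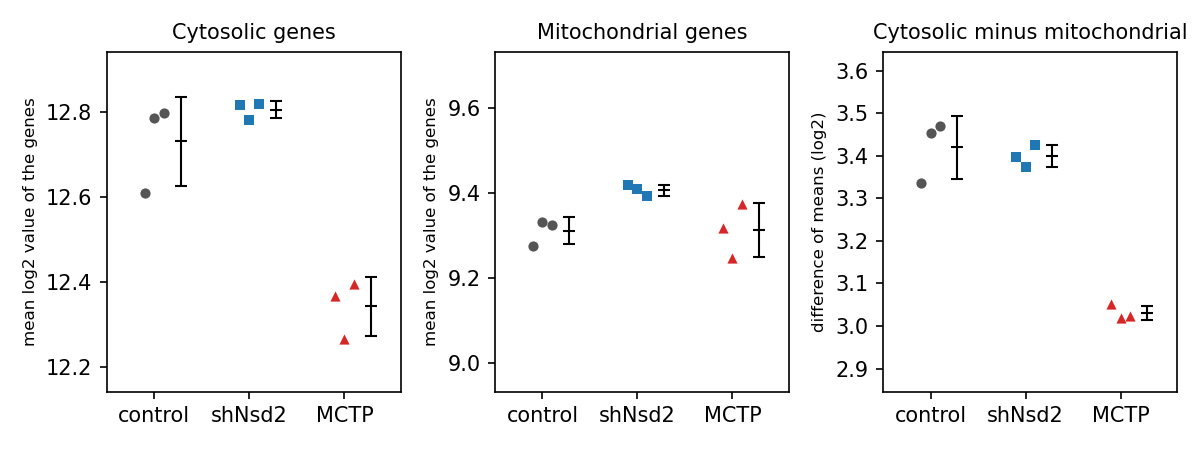
Mean log2 value of the 20 cytosolic genes (left), of the 16 mitochondrial genes (middle) and the difference between both means (right), with 1 point per library in the control, shNsd2 and MCTP groups and bars for the group mean ± SD (n = 3). The MCTP libraries lie at 12.27 to 12.40 for the cytosolic genes, below all control and shNsd2 libraries, and at 3.02 to 3.05 for the difference.

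Single libraries stood apart within their groups. Control 1 was the lowest control library for 19 of 20 cytosolic genes, and MCTP 2 the lowest MCTP library for 16 of 20 cytosolic and 11 of 16 mitochondrial genes. Across genes, each library's deviation from the mean of all libraries varied with the GC content of the transcripts: r was -0.576, -0.283 and -0.151 in control 1 to 3, 0.0967, 0.119 and -0.283 in shNsd2, and 0.438, -0.270 and 0.538 in MCTP. Genes are not independent replicates, so these r describe the libraries only. Without MCTP 2, limma called 7384 genes between MCTP and control in place of 4305. The results below are therefore also given without these libraries where they change.

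MCTP treatment was compared with control to ask which synthetase genes respond to the compound. Most cytosolic synthetase genes were lower after treatment and most mitochondrial ones did not pass the test. Of the 20 cytosolic genes, 13 (65%) fell and 0 rose at an adjusted p under 0.05 in limma, beside 17.2% and 18.0% of the 12216 genes tested. At an unadjusted p under 0.05, 15 were lower and 1 was higher, beside 5879 of the 12216 genes in either direction. Groups did not overlap for 14 cytosolic genes that were lower and 1 that was higher, beside 24.8% and 25.8% of all genes. The median log2 fold change of the class was -0.44, against -0.0062 over all genes, and 8 of its genes were below -0.5, a size reached by 2.90% of all genes. With control 1 and MCTP 2 both left out, a setting chosen after seeing the data, 16 cytosolic genes fell and 2 rose, with a median of -0.46. The shares of all genes above belong to the fit with every library. Without MCTP 2 more genes were called over all genes too, so those shares are no measure for this setting.

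Lars, which charges leucine and also reports leucine to the mTORC1 pathway, read 12.98, 13.14 and 13.13 in the control libraries. After MCTP it read 12.26, 12.25 and 12.18. All MCTP libraries were below all controls. The log2 fold change was -0.85 (SE 0.0592, 95% interval -0.99 to -0.72, adjusted p = 1.02e-04), so that the linear level fell by 44.6%.

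Nars, the asparagine enzyme, read 14.00, 14.16 and 14.17 in control and 13.33, 13.30 and 13.32 after MCTP. Tars, the threonine enzyme, read 12.27, 12.39 and 12.39 in control and 11.63, 11.59 and 11.61 after MCTP. In both genes the 3 MCTP libraries lay close together and below all controls, and control 1 was the lowest control. Nars changed by -0.79 (SE 0.0611, adjusted p = 1.55e-04) and Tars by -0.74 (SE 0.0525, adjusted p = 1.07e-04).

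Cars, the cysteine enzyme, read 12.73, 12.92 and 12.96 in control and 12.23, 12.12 and 12.25 after MCTP. Iars, the isoleucine enzyme, read 13.36, 13.55 and 13.59 in control and 12.87, 12.78 and 12.86 after MCTP. The groups were again apart, with control 1 nearest to the MCTP libraries. Cars changed by -0.67 (SE 0.0740, adjusted p = 7.22e-04) and Iars by -0.66 (SE 0.0708, adjusted p = 6.44e-04).

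The other 8 cytosolic genes that fell ranged from -0.66 for Eprs, the fused glutamate and proline enzyme, to -0.32 for Farsb. Between them stood Gars at -0.59, Sars at -0.55, the tyrosine enzyme Yars at -0.48, the methionine enzyme Mars at -0.45, Dars at -0.42 and the alanine enzyme Aars at -0.36. The weakest calls were Aars (adjusted p = 0.0279) and Sars (adjusted p = 0.0117). Aars was no longer called without control 2, control 3 or MCTP 1 (adjusted p = 0.0972, 0.0945 and 0.0872), nor after a correction for transcript length (adjusted p = 0.105, the highest of a range from 6.00e-07). Sars stood at the threshold itself without MCTP 1 (adjusted p = 0.05, the highest of a range from 6.28e-10) and was not called there.

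The 7 cytosolic genes that did not pass the test were spread on both sides of 0. Wars for tryptophan was at -0.30 (adjusted p = 0.0828), Rars for arginine at -0.18 (adjusted p = 0.0665) and Vars for valine at -0.17 (adjusted p = 0.148). Kars was at -0.01, with a 95% interval from -0.18 to 0.15, and its sign turned to 0.0013 after quantile normalization and to 0.0195 after centring on medians. The sign also turned without control 2 (0.0107), control 3 (0.0044) or MCTP 2 (0.0507). Hars for histidine was at 0.07, Farsa at 0.18 (adjusted p = 0.105) and the glutamine enzyme Qars at 0.21 (adjusted p = 0.0654). Without MCTP 2, Farsa and Qars passed as higher (adjusted p = 0.00244 and 7.08e-04) and Rars as lower (adjusted p = 0.0247). Without control 1, Rars (adjusted p = 0.0261) and Wars (adjusted p = 0.0160) passed as lower.

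Phenylalanine is charged by an enzyme built from the products of Farsa and Farsb, a pair chosen for this account once its values were known. Farsb, the other subunit, read 11.52, 11.68 and 11.64 in control and 11.34, 11.25 and 11.30 after MCTP. Farsa read 10.95, 11.01 and 11.05 in control and 11.20, 11.02 and 11.31 after MCTP. Farsb was lower in every MCTP library and fell by 0.32 (SE 0.0583, adjusted p = 0.00629), whereas Farsa overlapped control through MCTP 2. The difference between the subunits was not tested.

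The shares in this paragraph stand beside 17.2% of all genes lower and 18.0% higher with MCTP. Within the multi-synthetase complex, 5 of 8 enzymes (62.5%) fell: Eprs, Iars, Lars, Mars and Dars. The others were Qars, Rars and Kars, and of the 12 cytosolic genes outside the complex 8 (66.7%) fell. Of the 3 scaffold genes limma called 0, with 1 higher and 1 lower at an unadjusted p under 0.05. Aimp2 was at 0.26 (adjusted p = 0.0569) and Eef1e1 at -0.19 (adjusted p = 0.0590), and both passed without MCTP 2 (adjusted p = 7.33e-04 and 0.00490). By catalytic fold, 6 of 10 cytosolic genes of class I and 7 of 10 of class II fell, with medians of -0.46 and -0.39. Over both compartments these were 8 of 19 (42.1%) and 8 of 17 (47.1%), with the fused enzyme Eprs, which has both folds, counted in class I. With Gars and Kars left out of the cytosolic class, 12 of 18 fell and the median stayed at -0.44.

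Median base composition differed between the called and the other cytosolic genes, with overlapping ranges, and the difference was not tested. Transcripts of the 13 cytosolic genes that fell had a median GC content of 48.3% (from 41.2% to 56.4%). Those of the 7 others had 52.4% (from 45.9% to 60.9%), and all genes 50.4%. After a GC correction of each library, 15 cytosolic genes fell and 1 rose, with a median of -0.49.

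The mitochondrial class gave few calls with MCTP. Of its 16 genes 3 (18.8%) fell, close to the 17.2% of all genes, and 0 rose in limma, with 3 lower and 2 higher at an unadjusted p under 0.05. Groups did not overlap for 3 lower and 2 higher genes (18.8% and 12.5%), beside 24.8% and 25.8% of all genes. The median was -0.0060 and turned positive after quantile normalization (0.0245) and centring on medians (0.0277). Without MCTP 2, 3 mitochondrial genes passed as higher, in a setting where more of all genes were called as well. The shares of all genes above do not apply to it. Without control 2, only 1 passed as lower.

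Wars2, the mitochondrial tryptophan enzyme, read 8.75, 8.76 and 8.83 in control and 8.50, 8.48 and 8.56 after MCTP. Nars2, for asparagine, read 8.56, 8.69 and 8.57 in control and 8.42, 8.30 and 8.32 after MCTP. Iars2, for isoleucine, read 12.09, 12.05 and 12.06 in control and 11.86, 11.91 and 11.77 after MCTP. Every MCTP library was below every control library in these 3 genes. Wars2 fell by 0.27 (SE 0.0543, adjusted p = 0.00848), Nars2 by 0.26 (SE 0.0627, adjusted p = 0.0169) and Iars2 by 0.23 (SE 0.0527, adjusted p = 0.0153).

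Nars2 was not called without control 2 (adjusted p = 0.0765) or after the GC correction without or with the replicate block (adjusted p = 0.121 and 0.150), within a range from 6.97e-04 to 0.150. Iars2 was not called without control 1, 2 or 3 or MCTP 1 (adjusted p = 0.0621, 0.0607, 0.0573 and 0.0578). Wars2 passed under each of the alternatives tried. The 2 genes that were higher in every MCTP library were Tars2 at 0.24 (adjusted p = 0.0604) and Aars2 at 0.17 (adjusted p = 0.0885). Without MCTP 2 both passed, with adjusted p = 6.44e-04 and 0.00752.

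**Figure D2:**
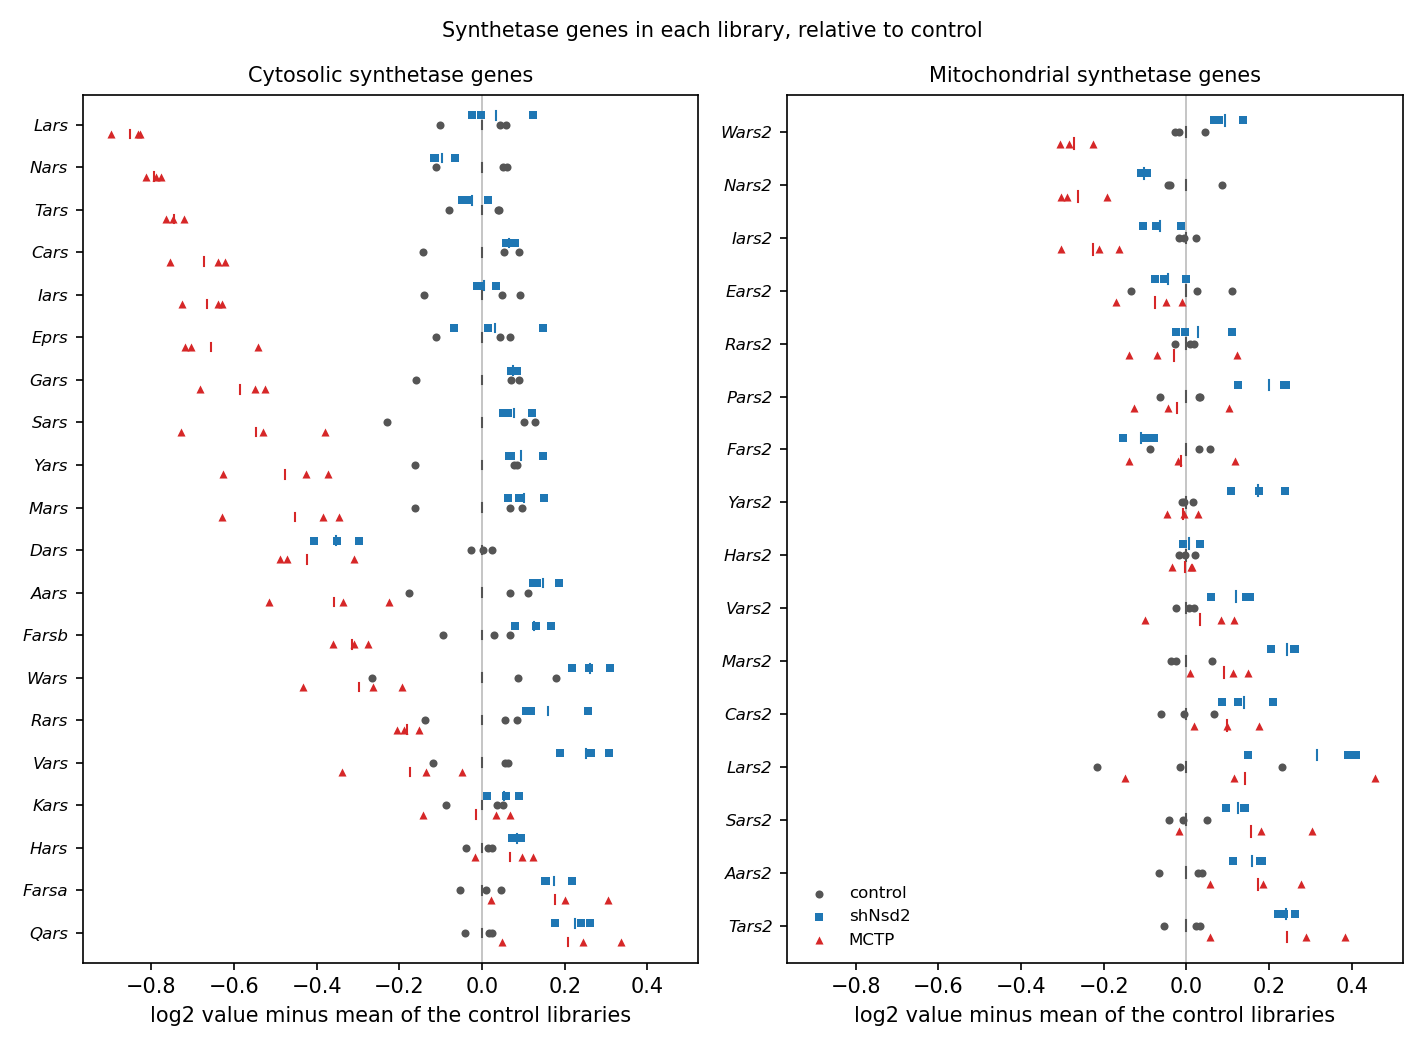
Log2 value of each of the 20 cytosolic (left) and 16 mitochondrial (right) synthetase genes in every library, minus the mean of the 3 control libraries, with points for single libraries and short lines for group means. Genes are ordered by their MCTP value, from Lars at -0.85 to Qars at 0.21 on the left and from Wars2 at -0.27 to Tars2 at 0.24 on the right.

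Silencing of Nsd2 was compared with control to ask which synthetase genes differ when its messenger RNA is reduced. The linear level of that messenger RNA fell by 43.7%, and these libraries hold no measure of the protein. The shNsd2 and MCTP comparisons share the same 3 control libraries, so their values are given side by side only. The changes were small, and the split of calls between the classes depended on libraries and settings. Of the 16 mitochondrial genes, 9 (56.2%) rose and 0 fell at an adjusted p under 0.05 in limma, beside 23.1% and 24.8% of the 12205 genes tested. The counts at an unadjusted p under 0.05 were the same, 9 and 0, beside 6688 of the 12205 genes in either direction. Groups did not overlap for 9 higher genes and 1 lower gene, beside 28.1% and 29.1% of all genes. The class median was 0.12, against 0.0020 over all genes.

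Mars2, the mitochondrial methionine enzyme, read 7.97, 7.87 and 7.88 in control and 8.17, 8.11 and 8.17 in shNsd2. Tars2, for threonine, read 9.65, 9.73 and 9.74 in control and 9.93, 9.94 and 9.97 in shNsd2. All shNsd2 libraries were above all controls in both genes. Mars2 rose by 0.24 (SE 0.0448, adjusted p = 0.00226) and Tars2 by 0.24 (SE 0.0400, adjusted p = 0.00128).

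Pars2, for proline, read 8.08, 7.99 and 8.08 in control and 8.29, 8.28 and 8.17 in shNsd2. Yars2, for tyrosine, read 9.19, 9.22 and 9.20 in control and 9.31, 9.38 and 9.44 in shNsd2. These groups were apart as well, with shNsd2 3 the lowest for Pars2 and shNsd2 1 for Yars2. Pars2 rose by 0.20 (SE 0.0499, adjusted p = 0.00997) and Yars2 by 0.17 (SE 0.0446, adjusted p = 0.0114).

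Lars2, for leucine, had the largest fold change of the class but the widest spread. Its values were 11.80, 12.24 and 12.00 in control and 12.40, 12.42 and 12.16 in shNsd2. The groups overlapped, since shNsd2 3 was below control 2. Lars2 rose by 0.32 (SE 0.107, adjusted p = 0.0366), and the call was lost without control 1 or 3 or without shNsd2 1 or 2 (adjusted p = 0.0638, 0.0792, 0.114 and 0.111), and with all 9 libraries in 1 fit (adjusted p = 0.137).

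The remaining 4 called genes were Aars2 at 0.16, Cars2 at 0.14, Sars2 at 0.13 and Vars2 at 0.12, with adjusted p from 0.0181 to 0.0472. Each of them was lost without shNsd2 1 and without shNsd2 2, at adjusted p from 0.0696 to 0.174. Without control 1, Cars2, Sars2 and Vars2 were lost (adjusted p = 0.0993, 0.0572 and 0.0600), Cars2 and Vars2 also without control 2 (0.115 and 0.0708), and Sars2 and Vars2 without control 3 (0.121 and 0.0724). In 1 fit of all 9 libraries and with the replicate block, all 4 were lost as well (adjusted p from 0.0615 to 0.217). After the GC correction Aars2 was at 0.09 and still passed (adjusted p = 0.0315), but not with the replicate block added (adjusted p = 0.0680). Cars2 at 0.09, Sars2 at 0.06 and Vars2 at 0.06 did not pass after the GC correction (adjusted p = 0.0572, 0.232 and 0.117). The count of 9 became 5 without control 1, 4 without shNsd2 1 and 4 without shNsd2 2. Mars2, Tars2, Pars2 and Yars2 passed whichever library was left out. Without control 1, 1 mitochondrial gene passed as lower.

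Of the 20 cytosolic genes, 3 (15%) rose and 1 (5%) fell with shNsd2, beside 23.1% and 24.8% of all genes. Those that rose numbered 7 after the GC correction, with or without the replicate block, and 7 when centred on medians. With the block alone 5 rose, as did 5 mitochondrial genes. Over all genes limma called 6762 in either direction with the GC correction and 6150 with block and GC correction, in place of 5836. It called 5818 when centred on medians and 4515 with the block alone. Of all calls 53.8% were higher when centred on medians, beside 48.2% as deposited. Groups did not overlap for 8 higher genes and 1 lower gene, beside 28.1% and 29.1% of all genes. The median was 0.081, but 0.0115 without control 1 and 0.128 without control 3, and 7 genes were higher and 1 lower at an unadjusted p under 0.05. The count of 3 became 6 without control 3, where 6 mitochondrial genes rose, and the count of 1 became 2 without control 1.

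Dars, the aspartate enzyme of the multi-synthetase complex, was the gene that fell. It read 11.41, 11.43 and 11.38 in control and 11.05, 11.00 and 11.10 in shNsd2, with no overlap. The change was -0.35 (SE 0.0385, adjusted p = 1.36e-04), and with MCTP the gene read 10.93, 11.09 and 10.91. It was thus below every control library in both treated groups.

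Vars, for valine, read 13.32, 13.50 and 13.49 in control and 13.74, 13.70 and 13.62 in shNsd2. Qars, for glutamine, read 12.11, 12.18 and 12.17 in control and 12.41, 12.39 and 12.33 in shNsd2. Farsa read 11.22, 11.15 and 11.16 in shNsd2, against at most 11.05 in control. In these 3 genes every shNsd2 library was above every control. Vars rose by 0.25 (SE 0.0553, adjusted p = 0.00536), Qars by 0.23 (SE 0.0371, adjusted p = 0.00121) and Farsa by 0.18 (SE 0.0392, adjusted p = 0.00596). Farsa was not called when all 9 libraries were in 1 fit (adjusted p = 0.0668).

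Just outside the threshold were Wars at 0.26 (adjusted p = 0.0509) and Farsb at 0.13 (adjusted p = 0.0560), both higher in all 3 shNsd2 libraries. Wars passed without control 1 or 3 (adjusted p = 0.0256 and 0.0149), and Farsb without control 2 (adjusted p = 0.0448). In the complex, Qars rose and Dars fell among the 8 enzymes, and among the 3 scaffolds Aimp2 rose by 0.29 (SE 0.0503, adjusted p = 0.00163). By fold, 7 of 19 class I genes (36.8%) and 5 of 17 class II genes (29.4%) rose, beside 23.1% of all genes, and 0 and 1 fell in limma, beside 24.8%. At an unadjusted p under 0.05, 9 and 7 were higher and 0 and 1 lower.

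The shNsd2 and MCTP libraries were also compared directly, which tests the difference between both treatments without the controls. Cytosolic synthetase genes were higher in shNsd2 than in MCTP. Of the 20, 15 (75%) were called higher and 0 lower in limma, beside 20.6% and 22.6% of the 12216 genes tested. An unadjusted p under 0.05 gave the same 15 and 0, beside 6407 of the 12216 genes in either direction. The same number, 15, had groups that did not overlap, all higher in shNsd2, beside 26.5% higher and 28.5% lower over all genes. The class median was 0.56, against 0.0072 over all genes. By fold, 9 of 10 cytosolic genes of class I and 6 of 10 of class II were higher, and 5 of the 8 complex enzymes.

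Lars read 13.08, 13.06 and 13.21 in shNsd2, beside 12.26, 12.25 and 12.18 in MCTP. Cars read 12.95, 12.93 and 12.93 in shNsd2, beside 12.23, 12.12 and 12.25 in MCTP. The shNsd2 libraries of both overlapped the controls. Lars differed by 0.89 (SE 0.0546, adjusted p = 4.61e-05) and Cars by 0.74 (SE 0.0505, adjusted p = 6.66e-05).

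Tars read 12.30, 12.32 and 12.37 in shNsd2, beside 11.63, 11.59 and 11.61 in MCTP. Nars read 14.00, 13.99 and 14.05 in shNsd2, beside 13.33, 13.30 and 13.32 in MCTP. No library of either group reached the other. Tars differed by 0.72 (SE 0.0428, adjusted p = 4.17e-05) and Nars by 0.70 (SE 0.0439, adjusted p = 4.82e-05).

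The 5 cytosolic genes that did not pass were Dars, Farsa, Hars, Kars and Qars. Dars differed by 0.07 (95% interval -0.07 to 0.22, adjusted p = 0.386), passed as higher without MCTP 2 (adjusted p = 0.0307) and turned to -0.08 after the GC correction. Of the 16 mitochondrial genes 5 (31.2%) were higher in shNsd2 and 0 lower in limma, beside 20.6% and 22.6% of all genes, with 6 and 0 at an unadjusted p under 0.05 and a median of 0.072. Groups did not overlap for 6 of 16, all higher, beside 26.5% of all genes. Wars2 read 8.86, 8.92 and 8.85 in shNsd2, above all 3 MCTP libraries, and differed by 0.37 (SE 0.0505, adjusted p = 0.00135).

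The other 4 mitochondrial genes were Pars2 at 0.22, Yars2 at 0.18, Iars2 at 0.16 and Nars2 at 0.16, with adjusted p from 0.0304 to 0.0409. Each was lost when single libraries were left out, at adjusted p up to 0.153, and with the replicate block (adjusted p = 0.0893, 0.119, 0.147 and 0.141). Pars2, Iars2 and Nars2 were also lost when centred on medians (0.0667, 0.0521 and 0.0712), Iars2 after quantile normalization (0.0584) and Nars2 after the GC correction (0.154). The mitochondrial count of 5 became 2 without MCTP 1, 3 without MCTP 3, 2 without shNsd2 1, and 1 without shNsd2 2 or shNsd2 3. Without MCTP 2, 1 mitochondrial gene was called lower and the median was 0.026.

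Genes that act on tRNA before and after charging were counted from lists chosen with earlier results of these data known. Their counts are a description only. Of 14 charging and handling genes 12 were analysed, Dtd2 and Gatb not. With MCTP 3 (25%) fell and 0 rose in limma, beside 17.2% and 18.0% of all genes, with 4 lower and 1 higher at an unadjusted p under 0.05. Xpot, which exports tRNA from the nucleus, read 12.34, 12.46 and 12.54 in control, 11.67, 11.71 and 11.57 in MCTP and 12.44, 12.46 and 12.62 in shNsd2. Its MCTP libraries were all lower, and the shNsd2 libraries overlapped control. Xpot fell by 0.79 with MCTP (SE 0.0660, adjusted p = 2.17e-04) and was higher by 0.86 in shNsd2 than in MCTP (SE 0.0652, adjusted p = 1.01e-04).

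The other 2 were Sepsecs, which makes selenocysteinyl-tRNA, at -0.21 (adjusted p = 0.0444) and the deacylase Dtd1 at -0.18 (adjusted p = 0.0467). Neither kept its call without control 1, 2 or 3 or without MCTP 1, at adjusted p from 0.0942 to 0.152, and without MCTP 3 Sepsecs was lost too (adjusted p = 0.120). Both were also lost with the replicate block (adjusted p = 0.0870 and 0.105) and when centred on medians (0.0632 and 0.114), Sepsecs after the GC correction (0.168) and the length correction (0.0600), and Dtd1 after quantile normalization (0.0981). With shNsd2, 2 rose and 2 fell (16.7% each), both shares below the 23.1% and 24.8% of all genes. Those that rose were the editing protein gene Aarsd1 at 0.20 (adjusted p = 0.0118) and the exportin Xpo5 at 0.16 (adjusted p = 0.0146). Those that fell were Pstk of the selenocysteine pathway at -0.19 (adjusted p = 0.00330) and Dtd1 at -0.15 (adjusted p = 0.0177). Xpo5 was lost without shNsd2 2 (adjusted p = 0.0633), and Dtd1 without control 2, control 3 or shNsd2 2 (adjusted p = 0.0674, 0.0519 and 0.0525). Aarsd1 was lost with all 9 libraries in 1 fit (adjusted p = 0.0755), and Dtd1 with the replicate block (adjusted p = 0.0657). In the direct comparison 2 (16.7%) were higher, below the 20.6% of all genes, Xpot and Tarsl2, a second cytosolic threonine enzyme, at 0.19 (adjusted p = 0.0395). Tarsl2 was lost without any 1 of MCTP 1, MCTP 3, shNsd2 1, shNsd2 2 or shNsd2 3, at adjusted p from 0.0901 to 0.126, and with the replicate block (0.112).

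Of the elongation factors, which deliver charged tRNA or move it through the ribosome, limma called 0 of 5 and 0 of 4 lower in any comparison, and 0 were lower at an unadjusted p under 0.05. Of all genes 24.8% were lower with shNsd2, 17.2% with MCTP and 22.6% in shNsd2 against MCTP, and lists this short may hold 0 at such shares. With shNsd2, beside 23.1% of all genes, 3 of 5 cytosolic factors rose, the exchange factor subunits Eef1g at 0.33 (adjusted p = 0.00102), Eef1d at 0.23 (adjusted p = 0.00622) and Eef1b2 at 0.13 (adjusted p = 0.0317). Of the 4 mitochondrial factors 2 rose, Tufm at 0.38 (adjusted p = 3.41e-04) and its exchange factor Tsfm at 0.12 (adjusted p = 0.0273). Eef1b2 was lost without control 1 or 3 or shNsd2 1 or 2 (adjusted p = 0.0551, 0.0604, 0.112 and 0.119), and Tsfm without control 1 or 2 or shNsd2 1 or 2 (0.0554, 0.0636, 0.0758 and 0.117). With all 9 libraries in 1 fit Eef1b2, Eef1d and Tsfm were lost (adjusted p = 0.152, 0.0549 and 0.126), with the replicate block Eef1b2 and Tsfm (0.0868 and 0.0853), and with block and GC correction Tsfm (0.0514). With MCTP, 1 of 5 cytosolic factors (20%) rose, near the 18.0% of all genes. That was Eef1g, which rose by 0.35 (adjusted p = 0.0260) but was lost without each single library other than MCTP 2, at adjusted p from 0.0608 to 0.0950. Of the mitochondrial factors limma called 0 with MCTP, and 1 was higher at an unadjusted p under 0.05. That was Tufm at 0.27 (adjusted p = 0.0565), which passed without MCTP 2 (adjusted p = 7.15e-04). The direct comparison called 0 of 5 and 0 of 4 in limma, with 0 and 0 at an unadjusted p under 0.05, beside 20.6% of all genes higher and 22.6% lower. Groups did not overlap for 0 of 5 cytosolic and 3 of 4 mitochondrial factors, all higher in shNsd2, beside 26.5% of all genes.

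Sensing of uncharged tRNA and the amino acid response were followed in 10 genes, a list also chosen with earlier results of these data known. With MCTP 8 (80%) fell and 1 (10%) rose, beside 17.2% and 18.0% of all genes, with a median of -0.56. With shNsd2 3 (30%) rose and 0 fell in limma (4 and 0 at an unadjusted p under 0.05), beside 23.1% and 24.8% of all genes, with a median of 0.16. Atf4 read 13.99, 14.16 and 14.28 in control, 13.50, 13.40 and 13.50 in MCTP and 14.26, 14.25 and 14.28 in shNsd2. Only the MCTP libraries stood apart. Atf4 messenger RNA fell by 0.68 with MCTP (SE 0.0793, adjusted p = 9.54e-04) and was higher by 0.79 in shNsd2 than in MCTP (SE 0.0487, adjusted p = 4.56e-05).

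Trib3, a pseudokinase induced in this response, read 11.20, 11.71 and 11.94 in control, 10.19, 9.99 and 10.36 in MCTP and 12.09, 12.04 and 12.11 in shNsd2. Control 1 was the lowest control, MCTP was lowest in all libraries and shNsd2 highest in all. The change was -1.43 with MCTP (SE 0.181, adjusted p = 0.00132) and 0.47 with shNsd2 (SE 0.151, adjusted p = 0.0303). The shNsd2 call was lost without control 2 (adjusted p = 0.0524) or without shNsd2 1, 2 or 3 (0.0776, 0.0568 and 0.0737). Asns, which makes the asparagine that Nars loads, read 13.30, 13.68 and 13.73 in control, 12.34, 12.15 and 12.37 in MCTP and 13.37, 13.32 and 13.38 in shNsd2. Here shNsd2 overlapped control, and only MCTP was lower in every library.

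With MCTP, Asns was at -1.29 (adjusted p = 3.28e-04), the glutathione-degrading enzyme Chac1 at -1.29 (adjusted p = 2.91e-04), the serine synthesis enzyme Psat1 at -0.79 (adjusted p = 6.69e-04) and the kinase gene Eif2ak4 at -0.39 (adjusted p = 0.00229). Ddit3, at -0.45 (adjusted p = 0.0256), was lost without control 2, control 3 or MCTP 1 (adjusted p = 0.0814, 0.0668 and 0.0985). Eif2s1, which encodes eIF2α, at -0.27 (adjusted p = 0.0360), was lost without each single library other than MCTP 2 and after the GC correction without or with the replicate block (adjusted p = 0.142 and 0.311) or quantile normalization (0.0519), within a range from 2.98e-06 to 0.311. Sesn2, a leucine sensor, rose in both treatments, by 0.26 with MCTP (adjusted p = 0.0429) and by 0.53 with shNsd2 (adjusted p = 1.68e-04). Its MCTP call was lost without control 1, control 2, MCTP 1 or MCTP 3, at adjusted p from 0.114 to 0.138. Gcn1l1, which activates Gcn2 at the ribosome, rose with shNsd2 by 0.19 (adjusted p = 0.00391). In the direct comparison 8 of 10 were higher in shNsd2 and 0 lower in limma, beside 20.6% and 22.6% of all genes (9 and 0 at an unadjusted p under 0.05), with a median of 0.71, led by Trib3 at 1.90, Chac1 at 1.45, Asns at 1.07 and Psat1 at 0.95.

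**Figure D3:**
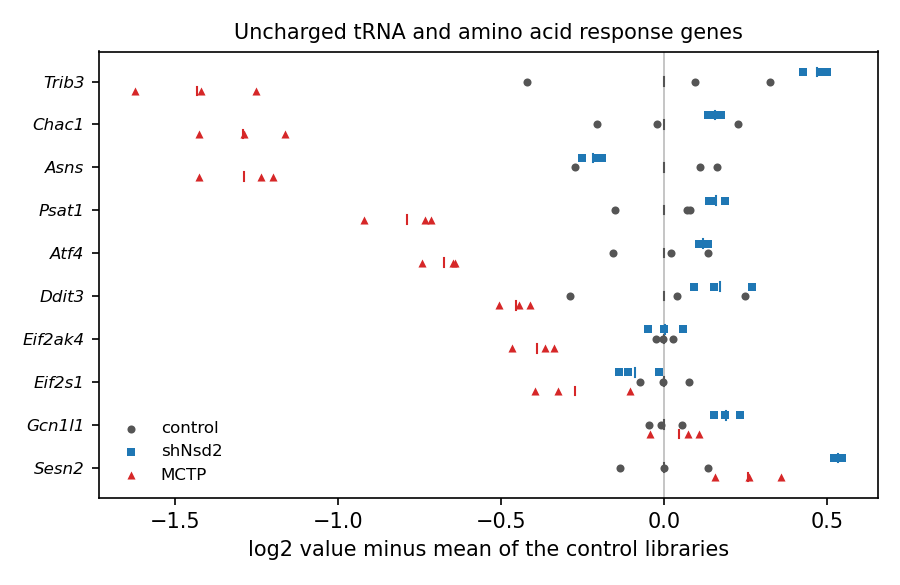
Log2 value of 10 genes of uncharged tRNA sensing and the amino acid response in each control, shNsd2 and MCTP library, minus the mean of the 3 control libraries, with points for single libraries and short lines for group means. Trib3, Chac1 and Asns lie lowest with MCTP, at -1.43, -1.29 and -1.29, and Sesn2 lies at 0.26 with MCTP and 0.53 with shNsd2.

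Promoter sequence was read for the synthetase genes because 13 of the 20 cytosolic members fell with MCTP. RefSeq windows on mouse build GRCm38.p6, from 250 bases before to 50 bases after a gene's start, were used for 26 of 36 genes. Aars2 has windows at different starts, and each gene was counted once. Cars, Hars, Lars, Mars, Nars, Rars, Vars, Wars, Hars2 and Pars2 are named only. Of the cytosolic genes among them, Cars, Lars, Mars and Nars fell with MCTP, while Hars, Rars, Vars and Wars did not pass. The windows thus cover only a part of both sets. Each window was searched on both strands for TGATGNAA, the core of the C/EBP-ATF response element, for TGACGTCA, the cyclic AMP response element, and for the E-box CACGTG. None of the 3 contains another, and the first is the one bound by Atf4 with a C/EBP partner in known target genes.

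TGATGNAA was found in 5 of 26 genes (19.2%), against 4.51% of the 27025 genes of the promoter table. All 5 were cytosolic genes, 5 of 12 (41.7%), and 0 of 14 mitochondrial genes held it. Of the 12 cytosolic windows, 9 belonged to genes that fell with MCTP, and 5 of these 9 held the letters, against 0 of the 3 whose genes did not pass. Those 3 were Farsa, Kars and Qars, too few for a comparison of shares. With the 250 bases before the start alone, 3 of 26 genes (11.5%) held them, against 3.91% of all genes. CACGTG was in 5 of 26 genes (19.2%), Aars, Farsb, Iars, Tars and Ears2, against 8.09% of all genes, and TGACGTCA in 0 of 26, against 2.03%. By class, CACGTG was in 4 of 12 cytosolic genes (33.3%) and 1 of 14 mitochondrial genes (7.14%). Among the cytosolic genes, it was in 4 of the 9 that fell with MCTP and 0 of the 3 that did not pass. The split by class and call was thus not particular to TGATGNAA. A match describes letters in a window and says nothing of binding, and no match says only that the letters are not in this window.

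The windows of the 5 genes with a match are shown so that the place and surroundings of the letters can be seen. Each is printed 5′ to 3′ on the strand of its gene, with TGATGNAA or its reverse complement in capitals, and position 1 is the first base of the transcript. The match starts at position -15 in Tars (chr15:11399609-11399908, minus strand), at -30 in Gars (chr6:55037751-55038050, plus strand), at 8 in Iars (chr13:49681880-49682179, plus strand) and at 4 in Yars (chr4:129189653-129189952, plus strand). Aars (chr8:111033592-111033891, plus strand) has 2 matches, before and after the start.
Tars: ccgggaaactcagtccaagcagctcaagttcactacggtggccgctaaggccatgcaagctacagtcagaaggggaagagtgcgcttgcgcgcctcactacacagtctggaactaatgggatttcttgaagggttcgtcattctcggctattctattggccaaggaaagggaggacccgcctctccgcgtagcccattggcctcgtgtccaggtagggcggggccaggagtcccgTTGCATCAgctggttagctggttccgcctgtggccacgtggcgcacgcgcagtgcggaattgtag
Gars: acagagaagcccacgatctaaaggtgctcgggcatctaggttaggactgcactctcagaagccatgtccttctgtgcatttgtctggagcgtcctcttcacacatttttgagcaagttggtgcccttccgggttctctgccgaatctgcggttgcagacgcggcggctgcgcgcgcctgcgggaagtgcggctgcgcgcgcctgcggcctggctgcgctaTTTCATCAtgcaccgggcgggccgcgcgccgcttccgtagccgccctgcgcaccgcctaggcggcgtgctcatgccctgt
Iars: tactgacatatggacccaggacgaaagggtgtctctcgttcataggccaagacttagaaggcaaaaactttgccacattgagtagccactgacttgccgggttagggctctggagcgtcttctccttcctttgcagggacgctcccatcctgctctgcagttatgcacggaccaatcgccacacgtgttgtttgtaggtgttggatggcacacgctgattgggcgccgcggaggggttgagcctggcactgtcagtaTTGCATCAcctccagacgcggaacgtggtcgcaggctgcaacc
Yars: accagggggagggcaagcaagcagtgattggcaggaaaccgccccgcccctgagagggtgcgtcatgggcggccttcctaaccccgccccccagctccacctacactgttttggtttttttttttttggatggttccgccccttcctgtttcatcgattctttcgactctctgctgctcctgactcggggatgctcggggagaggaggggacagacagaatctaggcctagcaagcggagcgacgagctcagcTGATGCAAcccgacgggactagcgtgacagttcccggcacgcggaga
Aars: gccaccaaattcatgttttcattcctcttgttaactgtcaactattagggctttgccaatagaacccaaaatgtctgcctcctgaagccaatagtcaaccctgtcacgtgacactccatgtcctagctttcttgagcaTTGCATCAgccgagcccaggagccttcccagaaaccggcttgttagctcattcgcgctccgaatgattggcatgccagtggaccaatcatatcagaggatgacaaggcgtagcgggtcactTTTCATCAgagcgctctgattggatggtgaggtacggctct

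The genes of this set change with MCTP by -0.74 for Tars, -0.59 for Gars, -0.66 for Iars, -0.48 for Yars and -0.36 for Aars. In 3 of them, Tars, Iars and Aars, the window holds an E-box as well. The letters of the match are TTGCATCA in Tars and Iars, TTTCATCA in Gars and TGATGCAA in Yars, while Aars has both of the first forms.

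Shared transcript sequence limits some single values. Of the 75-base windows of the reference transcript, 36.3% for Iars2 also occur in Rab3gap2, which overlaps it on the opposite strand, 22.1% for Aars in Exosc6 on the same strand, and 15.3% for Cars2 in Naxd on the opposite strand. Whether reads were counted by strand is not stated. Rab3gap2 itself read 12.07, 12.05 and 12.11 in control and 11.87, 11.81 and 11.82 in MCTP, lower in every library, and fell by 0.24 (SE 0.0464, adjusted p = 0.00740), beside 0.23 for Iars2, but was not called after the length correction (adjusted p = 0.134). With shNsd2 Rab3gap2 read 11.84, 11.84 and 11.88, below every control, and fell by 0.22 (adjusted p = 7.17e-04), whereas Iars2 was at -0.06, overlapped control and was not called (adjusted p = 0.172). What part of either value comes from the other gene was not tested, and Exosc6 and Naxd were not analysed here. Farsb shared 8.97%, Hars 6.32% and Nars2 5.67% of their windows with another gene, 5 further members less than 5%, and 25 members none. Mars and Ddit3 overlap by 68 exon bases on opposite strands.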

How the data were processed

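Poly-A RNA of 9 libraries was analysed, 3 each of control, shNsd2 and MCTP cells. The log2 values were used as deposited by the authors, already scaled between libraries, with a range from 1.63 to 18.47. The submitters' notes name bcl2fastq 1.8.4, TopHat, Cufflinks, DESeq, DESeq2 and build mm9, and do not state how reads were counted. Another 3 columns of the table match no sample and were not used. Read depth is unknown, so precision rests on the replicates alone.

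Each pair of groups was fitted across all genes with limma 3.58.1 (R 4.3.3, moderated test with a mean-variance trend), and p-values were adjusted by Benjamini-Hochberg over all genes tested, with 0.05 as threshold. Genes were tested when at least 3 of the 6 libraries compared exceeded 3.78, a floor set at the median among the lowest 10% of values. The fit was tested on simulated data for MCTP against control, with 200 changed genes. Of log2 changes of 0.25 it recovered 22%, and of changes of 0.5 it recovered 72%. Of its calls 5.05% were false. A gene that was not called may therefore still have changed by such an amount. An exact two-sided permutation test of 3 against 3 libraries cannot go below 0.1 and was not used. Intervals are at 95%. At an unadjusted p under 0.05, genes passing in either direction numbered 6688 of 12205 with shNsd2 and 5879 of 12216 with MCTP. In the direct comparison they numbered 6407 of 12216.

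The members and lists were chosen with earlier results of these data known. Values in every library were given for up to 5 called members with the largest absolute log2 fold change in each class and comparison with control, for up to 4 in the direct comparison, and for further genes chosen after their values were seen (Farsb, Farsa and Dars in MCTP, Wars2 in shNsd2, Whsc1, Xpot, Atf4, Trib3, Asns, Rab3gap2, Cd68 and Krt14). Transcript lengths, GC content and overlaps came from GENCODE M21 (12513 of 12842 genes matched by gene identifier, 97.4%), and promoter windows from RefSeq. Protein sequences were not compared. Some engineered alleles of the cells, 1 gene of the charging and handling list and 2 marker genes are not reported here.

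Alternatives were no filter, all 9 libraries in 1 fit, a replicate block without and with a GC correction, a GC or a length correction (lowess, span 0.3), quantile normalization, centring on medians, no trend, a minimum absolute log2 fold change of 0.25, the cytosolic class without Gars and Kars, each library left out in turn, and the 250 bases before the start alone. Leaving out control 1 and MCTP 2 together was added after seeing the data. Python 3.11.15 and matplotlib 3.10.9 served for the figures.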

Additional observations from a re-analysis of the deposited data

How the results depend on the processing

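With MCTP, 11 to 16 cytosolic genes were called lower under the alternatives tried, with medians from -0.49 to -0.38, and in the direct comparison 14 to 16 cytosolic genes were called higher in shNsd2. Counts of mitochondrial genes and of the smaller shNsd2 changes depended more on the processing, and the cause was not tested. Calls over all genes also changed between settings, so the shares of all genes in the results belong to the fit as reported only. For shNsd2 against control, cytosolic genes called higher were 3 as reported, 5 with the replicate block, 7 with the replicate block and GC correction, 7 with the GC correction, 7 centred on medians and 1 with a minimum change of 0.25. Mitochondrial genes called higher were 9 as reported, 4 with all 9 libraries in the fit, 5 with the replicate block and 1 with the minimum change. Mitochondrial genes called lower were 1 and the mitochondrial median 0.0913 with the GC correction, with and without the block. For MCTP against control, cytosolic genes called higher were 1 with all 9 libraries, 1 with the GC correction, 1 after quantile normalization and 2 without control 1 and MCTP 2. Mitochondrial genes called higher were 2 with all 9 libraries, 2 with the GC correction, 2 with the block and GC correction, 1 with the length correction, 1 after quantile normalization and 4 without control 1 and MCTP 2. The Trp63 change of 0.03 turned to -0.0175 after quantile normalization. The Kars change of -0.01 turned to 0.0013 after quantile normalization, 0.0195 centred on medians and 0.0074 without control 1 and MCTP 2. For shNsd2 against MCTP, mitochondrial genes called higher were 5 as reported, 1 with the replicate block, 2 centred on medians and 1 with the minimum change, and the Dars difference turned to -0.0776 with the GC correction, with and without the block. Promoter windows with TGATGNAA numbered 3 in the 250 bases before the start. Leaving out 1 library at a time gave these ranges. In shNsd2 against control, cytosolic genes called lower were 1 to 2 and higher 3 to 6, with a median of 0.0115 to 0.128, and mitochondrial genes lower 0 to 1 and higher 4 to 9. In MCTP against control, cytosolic genes called higher were 0 to 2, mitochondrial genes lower 1 to 3 and higher 0 to 3, and the Kars change -0.0575 to 0.0507. In shNsd2 against MCTP, the cytosolic median was 0.48 to 0.61, mitochondrial genes called lower 0 to 1 and higher 1 to 6, and the mitochondrial median 0.0257 to 0.103. Of 1656 values of single genes under alternatives, 1396 kept direction and side of the threshold, 185 no longer passed it, 66 newly passed it and 9 turned sign. The replicate numbers were not taken as pairs: in a pairing check, the 3 same-number pairs had a mean r of -0.251 (from -0.511 to 0.247) for shNsd2 with control, -0.185 (from -0.600 to 0.612) for MCTP with control and -0.361 (from -0.805 to 0.353) for the treated groups with each other. With 3 pairs and this spread, pairing is not settled.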
